A study of Mus musculus with 23 samples.

Results

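The genes described here are 8 regulators of transcription known from mouse germ cells: Figla, Nobox, Sohlh1, Sohlh2, Lhx8, Taf4b, Tbpl2 and Taf7l. They were chosen by name, and each was found once among the 22784 gene symbols of the expression table. All 8 reached 1 FPKM (sequenced fragments scaled to transcript length and to the mapped fragments of the library) in at least 1 group, as did 14242 genes in all. The study measured poly(A) RNA from female mouse germ cells along a culture route from embryonic stem cells to mature eggs, and from germ cells of animals at matched stages. It holds 23 samples in 8 groups, 14 samples from culture and 9 from animals, with 3 samples in 7 groups and 2 in the other.

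The 5 culture groups carry the strain label C57BL/6 X 129. The first is female embryonic stem cells kept in 2i and LIF, which hold the cells in a naive pluripotent state. The second is primordial germ cell-like cells after 6 days of induction from female epiblast-like cells, and the third is such cells after 3 further days in aggregates with gonadal somatic cells of female E12.5 embryos. The fourth is oocytes taken from secondary follicles after 21 days as such a reaggregate, which received ICI182780, an antagonist of the estrogen receptor. The fifth is oocytes at metaphase of meiosis II, the MII stage of the mature egg, after 11 days of follicle culture and 16 h of maturation, with BMP15 and GDF9 added early in the follicle culture. The 3 animal groups carry the strain label B6D2F1. They are primordial germ cells of E12.5 embryos and secondary follicle oocytes of 8 d.p.p. (days post partum) pups, both sorted by the BVSC reporter transgenes, and MII oocytes of females 8 weeks old. Strain, hormone antagonist and added growth factors go with the route, so their parts in a difference between culture and animal cannot be told apart. Every library is a pool of cells, from 99 to 134 oocytes at MII and from 337 to 812 at the secondary follicle stage, up to between 5300 and 15000 cells in aggregates.

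An oocyte enters the primordial follicle around birth and then grows while transcription is active, and transcription stops before the meiotic divisions resume. FIGLA, SOHLH1 and SOHLH2 are basic helix-loop-helix proteins that bind E-box sequences, and FIGLA is required for primordial follicles and for zona pellucida genes. NOBOX and LHX8 are homeodomain proteins required for the early follicle. TAF4B, TBPL2 (also called TBP2 or TRF3) and TAF7L are germline relatives of TAF4, TBP and TAF7, which are parts of TFIID, the complex that recognises core promoters.

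The table holds 1 FPKM value per gene and group, so there is no spread between samples, no test and no error for any difference below. A gene is called higher or lower where log2(FPKM + 1) differs by at least 1, which is 2-fold, and such a call describes the deposited values only. In pooled cells, fewer cells with a transcript and less transcript per cell cannot be told apart. FPKM is relative to the whole library, and the column sums ranged from 268720 in aggregates to 975407 in MII oocytes of animals. Summed FPKM of 4 oocyte markers, Zp3, Gdf9, Nlrp5 and Mos, lay between 8913 and 13494 in the 4 oocyte groups and was at most 7.19 in the 4 earlier groups. The 10 granulosa cell markers summed to between 0.555 and 13.3 in the groups before MII, and to 67.3 in MII oocytes of culture and 51.5 in those of animals. Cyp19a1 made up 27.1 and 42.2 of the MII sums, Inha 19.3 and 2.55, and Hsd3b1 12.7 and 3.33, the last 2 genes being called higher in culture than in animals. Fshr was at 0 in both MII groups and Foxl2 at 0.647 and 0.0490. The 4 genes listed as stromal markers reached 77.2 in culture and 65.2 in animals at MII, of which Gata4 was 76.7 and 64.8. Col3a1, Pdgfra and Nr2f2 were at most 0.414 FPKM there, so these sums describe Gata4 rather than stroma. The part of other cells in the members' levels was not tested.

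None of the 7 members whose positions are given here overlapped another annotated gene (GENCODE M21, GRCm38). Figla lies on chromosome 6 at chr6:86016171-86020996 on the plus strand, and Nobox on the minus strand of the same chromosome at chr6:43303674-43309554. Sohlh1 lies at chr2:25842995-25847248 and Tbpl2 at chr2:24071721-24096595, both on the minus strand of chromosome 2. Sohlh2 occupies chr3:55182028-55209957 on the plus strand and Lhx8 chr3:154306294-154330659 on the minus strand. Taf7l is X-linked, at chrX:134460118-134476490 on the minus strand. Taf4b overlaps a processed pseudogene on the same strand that is not a row of the table, and how reads in the overlap were counted is not known here.

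The sequences before the start sites of Sohlh1, Tbpl2, Figla, Nobox and Lhx8 are shown because these 5 genes shared the growth-stage pattern described further on. That of Sohlh2 is added for comparison with Sohlh1, since the levels of the pair ran opposite ways. Each is the 250 bases before the RefSeq start site (GRCm38.p6), read 5′ to 3′ on the gene's own strand. Capitals mark E-boxes, CANNTG, of which Lhx8 has none. RefSeq and GENCODE starts differ for Figla, Lhx8 and Sohlh2. The Figla region lies wholly inside the GENCODE gene given above, and those of Lhx8 and Sohlh2 overlap theirs in part. The regions are chr2:25847249-25847498 on the minus strand for Sohlh1, chr2:24096596-24096845 on the minus strand for Tbpl2, chr6:86016941-86017190 on the plus strand for Figla, chr6:43309555-43309804 on the minus strand for Nobox, chr3:154330561-154330810 on the minus strand for Lhx8 and chr3:55181794-55182043 on the plus strand for Sohlh2.
Sohlh1: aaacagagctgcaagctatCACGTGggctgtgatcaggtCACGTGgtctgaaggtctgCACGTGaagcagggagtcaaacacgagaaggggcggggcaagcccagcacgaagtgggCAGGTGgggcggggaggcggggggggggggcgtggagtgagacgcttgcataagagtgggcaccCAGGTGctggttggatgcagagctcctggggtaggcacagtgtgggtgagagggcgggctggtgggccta
Tbpl2: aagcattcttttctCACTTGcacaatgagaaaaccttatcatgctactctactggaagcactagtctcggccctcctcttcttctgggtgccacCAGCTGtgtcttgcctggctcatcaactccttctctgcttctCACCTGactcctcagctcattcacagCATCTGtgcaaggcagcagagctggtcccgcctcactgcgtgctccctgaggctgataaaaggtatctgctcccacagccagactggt
Figla: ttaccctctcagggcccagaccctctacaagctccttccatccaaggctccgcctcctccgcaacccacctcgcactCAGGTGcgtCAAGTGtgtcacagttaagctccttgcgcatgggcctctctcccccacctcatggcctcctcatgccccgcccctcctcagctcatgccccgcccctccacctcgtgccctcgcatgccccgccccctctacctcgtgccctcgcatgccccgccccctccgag
Nobox: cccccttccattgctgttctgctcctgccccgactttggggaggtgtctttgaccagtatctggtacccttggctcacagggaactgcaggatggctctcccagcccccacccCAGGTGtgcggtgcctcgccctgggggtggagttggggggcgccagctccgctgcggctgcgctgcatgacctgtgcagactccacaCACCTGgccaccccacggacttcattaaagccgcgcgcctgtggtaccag
Lhx8: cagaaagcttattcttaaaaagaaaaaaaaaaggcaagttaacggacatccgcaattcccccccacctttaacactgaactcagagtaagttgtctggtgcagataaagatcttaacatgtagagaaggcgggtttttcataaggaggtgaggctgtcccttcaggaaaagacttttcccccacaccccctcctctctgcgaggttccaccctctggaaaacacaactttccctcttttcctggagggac
Sohlh2: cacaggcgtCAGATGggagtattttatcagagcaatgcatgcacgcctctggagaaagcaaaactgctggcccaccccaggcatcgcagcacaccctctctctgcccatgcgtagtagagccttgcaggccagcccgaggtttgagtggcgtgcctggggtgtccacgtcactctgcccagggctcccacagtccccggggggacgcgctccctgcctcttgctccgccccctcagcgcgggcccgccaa

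A RefSeq promoter was matched for 7 of the 8 members and was searched on both strands from 250 bases before to 50 bases after the start. Sohlh1 and Tbpl2 held 5 E-boxes each, Figla 4, Nobox 2, Taf7l 2, Sohlh2 1 and Lhx8 0. At least 1 E-box was present in 72.3% of all 32851 promoters of this length, and 5 or more were present in 2.10%. The homeodomain motifs TAATTG and TAATTA, present in 8.00% and 5.29% of promoters, were found in 0 of the 7. TATAAA, present in 13.6%, was found only in Taf7l, at 2 overlapping places. Of the 5 E-boxes of Sohlh1, 3 had the form CACGTG, a form chosen for a count after the sequence was seen; 0.0883% of promoters, 29 in all, held 3 or more. These matches describe letters, and binding was not measured.

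Before the oocyte stages, Taf4b and Sohlh2 were above 1 FPKM in all 4 groups, and no other member was. Taf4b had 5.87 FPKM in stem cells, 12.2 after 6 days of induction and 18.2 in aggregates, and 21.1 in E12.5 germ cells. Sohlh2 had 3.19, 7.50 and 41.8 FPKM in the same culture groups and 68.6 in E12.5 germ cells. Among these 4 groups both were lowest in stem cells and highest in E12.5 germ cells. From stem cells to day 6, Sohlh2 was the only one of 8 members called higher, by 1.02 on the log2(FPKM + 1) scale (2.35-fold in FPKM), and 0 were called lower. Over all genes 9.63% were called higher and 12% lower in that step. Taf4b missed the 2-fold rule at 0.95, and the median of the members was 0.20 against 0.00 for all genes. The Sohlh2 call rests on the pseudocount, since with 5 in place of 1 no member was called.

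From day 6 to the aggregate, 2 members were called higher and 0 lower, against 5.15% and 5.04% of all genes. Sohlh2 was higher by 2.33 (5.57-fold in FPKM) and Taf7l by 3.22. Taf7l had 0.788 FPKM in stem cells, 0.370 at day 6 and 11.8 in aggregates, and 7.65 in E12.5 germ cells, and these last groups were the only 2 of the 8 in which it exceeded 1 FPKM. Figla, Nobox, Sohlh1, Lhx8 and Tbpl2 stayed under 1 FPKM in all 3 culture groups. Figla, at 0.0264, 0.418 and 0.938 FPKM, was the highest of these 5 in aggregates, and it alone of the 5 exceeded 1 FPKM in E12.5 germ cells, with 2.58.

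**Figure D1:**
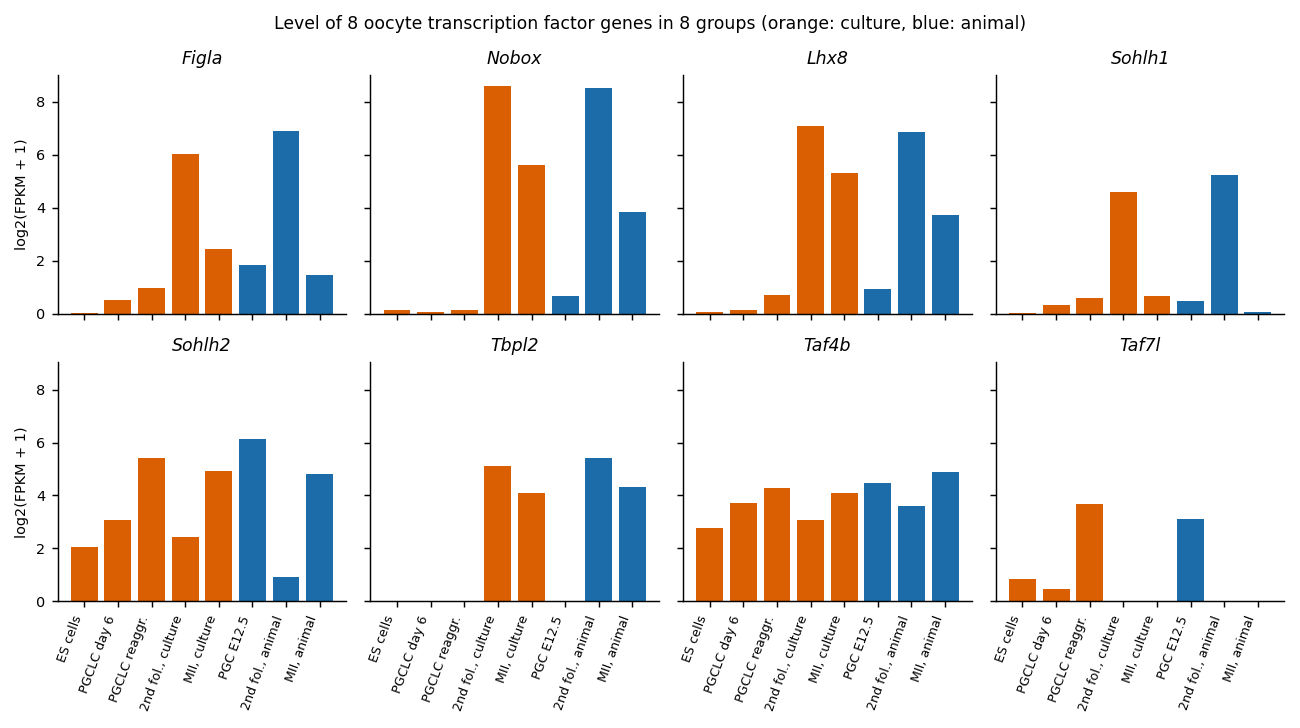
Bars give log2(FPKM + 1) of each of the 8 members in the 5 culture groups (orange) and the 3 animal groups (blue), with 1 deposited value per gene and group and no error. Figla, Nobox, Sohlh1, Lhx8 and Tbpl2 are highest in the secondary follicle oocytes of each route, while Sohlh2 and Taf7l are highest in aggregates and E12.5 germ cells.

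Between the germ cell and the secondary follicle oocyte, Nobox, Lhx8, Tbpl2, Figla and Sohlh1 were all called higher in both routes, and Sohlh2 and Taf7l lower in both. In culture 5 members were called higher and 3 lower, against 25.2% and 26.4% of all genes. In animals 5 were called higher and 2 lower, against 24.3% and 25.9%. The members' median log2 ratio was 4.56 in culture and 4.91 in animals, and that of all genes was -0.09 in each.

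Nobox changed by the largest ratio of the 8 in both routes. It had 0.0996, 0.0570 and 0.114 FPKM in stem cells, day 6 cells and aggregates and 389 in secondary follicle oocytes of culture, a log2 ratio of 8.45. In animals it had 0.580 FPKM in germ cells and 367 in secondary follicle oocytes, a log2 ratio of 7.86. These oocyte levels ranked 71st in culture and 80th in animals among the 14242 genes, the highest ranks of the 8.

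Lhx8, the other homeodomain gene, was likewise highest in the secondary follicle oocytes, next in the MII oocytes and under 1 FPKM in the 4 earlier groups. It had 0.0519, 0.110 and 0.635 FPKM in the culture groups before the oocyte and 134 in secondary follicle oocytes of culture, against 0.914 and 115 in animals. Its log2 ratios were 6.37 in culture and 5.93 in animals.

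Figla stood at 65.3 FPKM in secondary follicle oocytes of culture and 117 in those of animals, with log2 ratios of 5.10 and 5.05. Because Figla was already above 1 FPKM in E12.5 germ cells, its fold there can be given in FPKM, and it was 45.4. Sohlh1 had 0.00670, 0.267 and 0.489 FPKM in culture before the oocyte and then 23.2, and 0.394 and then 36.9 in animals, with log2 ratios of 4.02 and 4.77. Sohlh1 thus had the lowest oocyte level of the 5 genes in both routes.

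Tbpl2, the oocyte relative of the TATA-binding protein, was nearest to 0 before growth. It had 0.00885, 0 and 0.00406 FPKM in the 3 culture groups and 0.00884 in E12.5 germ cells. In secondary follicle oocytes it had 34.0 FPKM in culture and 41.5 in animals, with log2 ratios of 5.12 and 5.40.

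Sohlh2 moved against Sohlh1, the protein with which it is known to form a dimer. It went from 41.8 FPKM in aggregates to 4.42 in secondary follicle oocytes of culture, a log2 ratio of -2.98, and from 68.6 to 0.902 FPKM in animals, a ratio of -5.19. Taf7l was at 0.00457 and 0.0135 FPKM in secondary follicle oocytes, log2 ratios of -3.67 in culture and -3.09 in animals. Taf4b was at 7.45 FPKM in culture and 11.1 in animals, log2 ratios of -1.19 and -0.87. Its call therefore differed between routes while its direction did not. The culture call for Taf4b was lost with a pseudocount of 5 (-0.90), and the animal value passed the rule after quantile normalization (-1.22) or scaling to equal column sums (-1.20).

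**Figure D2:**
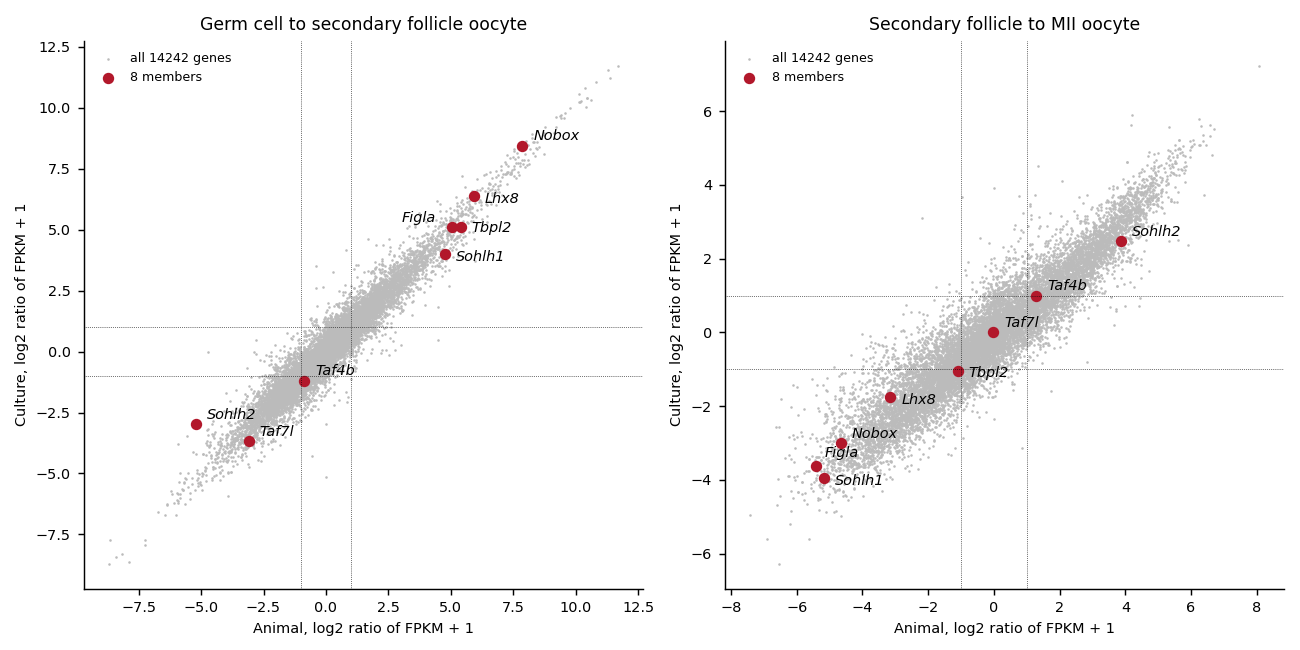
Log2 ratio of FPKM + 1 for the 8 members (red) and all 14242 genes (grey), animal route on the x axis and culture route on the y axis; dotted lines mark 2-fold. In the growth step on the left 5 members lie at 4.02 or higher on both axes, and in the step to MII on the right the same 5 lie below 0 while Sohlh2 lies above 2.

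At MII the order of the members changed again. In culture 2 members were called higher and 5 lower than in secondary follicle oocytes, against 23.9% and 28.6% of all genes. In animals the counts were also 2 and 5, against 28% and 33.1%. The 5 lower genes were Figla, Nobox, Sohlh1, Lhx8 and Tbpl2 in each route, and the 2 higher genes were Sohlh2 and Taf4b. The members' median was -1.40 in culture and -2.12 in animals, against -0.08 and -0.09 for all genes.

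The 5 growth-stage genes differed in their MII level as a share of the secondary follicle level. These shares are of FPKM as deposited, and no rescaled share was computed. The column sums were larger at MII, so a share does not measure transcript left per oocyte. Sohlh1 was at 0.572 FPKM in MII oocytes of culture and 0.0522 in those of animals, which is 2.47% and 0.141% of the earlier level. Figla, at 4.37 and 1.76 FPKM, kept 6.70% and 1.50%. These 2 helix-loop-helix genes had the smallest shares of the 5.

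Nobox, at 47.7 and 13.5 FPKM, kept 12.3% in culture and 3.67% in animals. Lhx8, at 39.3 and 12.1 FPKM, kept 29.3% and 10.5%. Tbpl2, at 15.9 and 18.8 FPKM, kept 46.7% and 45.4%, the largest shares of the 5. They were nearly equal in both routes as deposited, although the MII column sum was 616260 in culture and 975407 in animals. The order of the 5 genes by share was the same in culture and in animals. Tbpl2 lay just past the rule, at -1.05 and -1.10, and with a pseudocount of 5 it was at -0.90 and -0.96. In culture it was also not called after centring on the all-gene median (-0.97).

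Sohlh2 was again high at MII, with 29.2 FPKM in culture and 26.9 in animals, log2 ratios of 2.48 and 3.87. Its course over each route was thus high in germ cells, low in secondary follicle oocytes and high in eggs. Taf4b had 15.9 and 28.4 FPKM, ratios of 1.00 and 1.29. For Taf4b the scaling decides: with equal column sums the ratio was 0.25 in culture and -0.11 in animals, a change of sign in the latter. The column sums themselves were 616260 and 975407 at MII against 349451 and 349772 before. Taf7l stayed at 0.00727 FPKM in culture and was listed at 0 in animals.

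The members were then compared between culture and animals at 3 stages. In aggregates against E12.5 germ cells, 0 of 8 were called higher and 0 lower, against 1.39% and 0.786% of all genes. The furthest were Figla, at 0.938 against 2.58 FPKM and a log2 ratio of -0.89, and Sohlh2, at 41.8 against 68.6 FPKM and -0.70. With the 0.1 pseudocount 2 members passed the rule, Figla at -1.37 and Nobox at -1.67, and Figla also passed with equal column sums. These 2 genes were low in both groups, Nobox at 0.114 and 0.580 FPKM. Taf7l had the highest ratio, 0.56.

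Secondary follicle oocytes of the 2 routes differed in 1 member by the rule. Sohlh2 had 4.42 FPKM in culture and 0.902 in animals, a log2 ratio of 1.51, and 0 members were called lower, against 1.74% and 0.66% of all genes. With a pseudocount of 5 the Sohlh2 ratio was 0.67 and no member was called. The other 7 members lay between -0.84 for Figla and 0.22 for Lhx8, and Nobox was at 0.08. Figla (1.80-fold in FPKM), Sohlh1 (1.59-fold) and Taf4b (1.49-fold) were lower in culture but under the rule.

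At MII, Nobox and Lhx8 were called higher in culture and 0 members lower, against 12.4% and 9.45% of all genes. Nobox had 47.7 FPKM in culture and 13.5 in animals, a log2 ratio of 1.75 (3.54-fold in FPKM). Lhx8 had 39.3 and 12.1, a ratio of 1.62 (3.25-fold). At the secondary follicle stage neither gene had differed by more than 1.17-fold between the routes. Figla was at 0.96 and so just under the rule, although its FPKM differed by 2.49-fold, and it passed with equal column sums (1.20) or with no pseudocount (1.31). The low level of Sohlh1 makes its ratio depend on the pseudocount, 0.58 with 1 and 2.14 with 0.1. Sohlh2 (0.12), Tbpl2 (-0.24) and Taf4b (-0.80) were not called. Of 9 granulosa markers compared, 2 were called higher in MII oocytes of culture, Inha and Hsd3b1, and 0 lower. The median log2 ratio of these markers was 0.70, against 0.01 for all genes. The highest of them, Cyp19a1, was not called and lay the other way, at 27.1 FPKM in culture and 42.2 in animals. The part of such cells in the Nobox and Lhx8 difference was not tested.

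**Figure D3:**
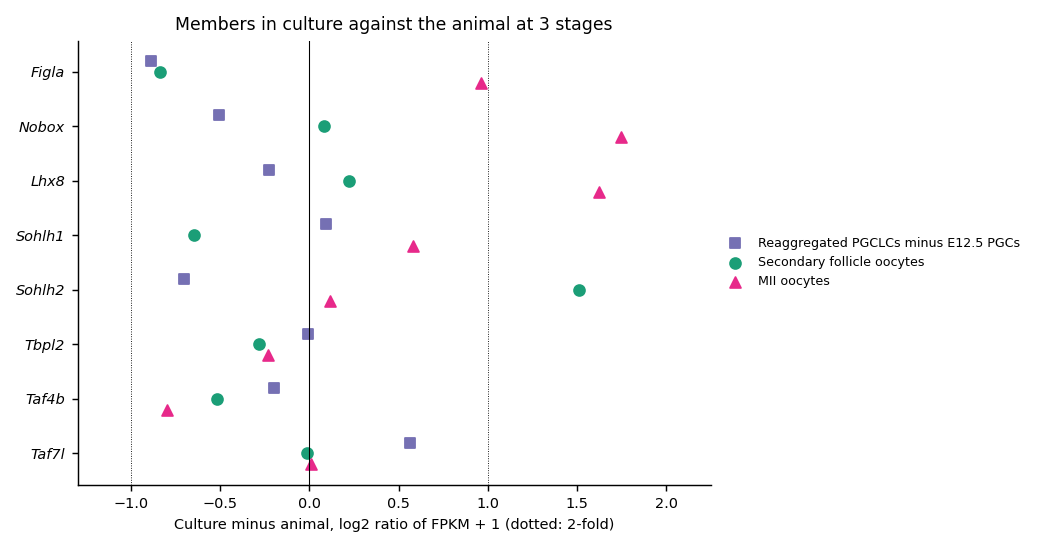
Log2 ratio of FPKM + 1, culture minus animal, for each member at the 3 matched stages, with 1 value per group and dotted lines at 2-fold. Sohlh2 passes the line at the secondary follicle stage, and Nobox and Lhx8 pass it at MII.

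TFIID contains TBP and the TAF proteins, and Tbpl2, Taf4b and Taf7l encode germline relatives of its TBP, TAF4 and TAF7 subunits. Tbp itself had between 20.8 and 40.5 FPKM in the 8 groups. Tbpl2 therefore made up 55.2% of the summed FPKM of Tbpl2 and Tbp in secondary follicle oocytes of culture and 62.5% in those of animals. Its share was at most 0.0426% in the 4 earlier groups, and 33.4% and 31.7% at MII.

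Taf4b made up 33.6% of the sum of Taf4b and Taf4 in stem cells, between 54.0% and 66.1% in the next groups up to the secondary follicle of both routes, and 6.82% and 6.54% at MII. At MII it was Taf4 that differed most, with 217 FPKM in culture and 407 in animals against 6.35 and 6.64 in secondary follicle oocytes. Taf7l made up 46.4% of the sum with Taf7 in aggregates and 40.6% in E12.5 germ cells. Its share was at most 2.02% in stem cells and day 6 cells and at most 0.0310% in all 4 oocyte groups. Taf4b and Taf7l thus had their highest shares in aggregates and in E12.5 germ cells, and Tbpl2 in secondary follicle oocytes.

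**Figure D4:**
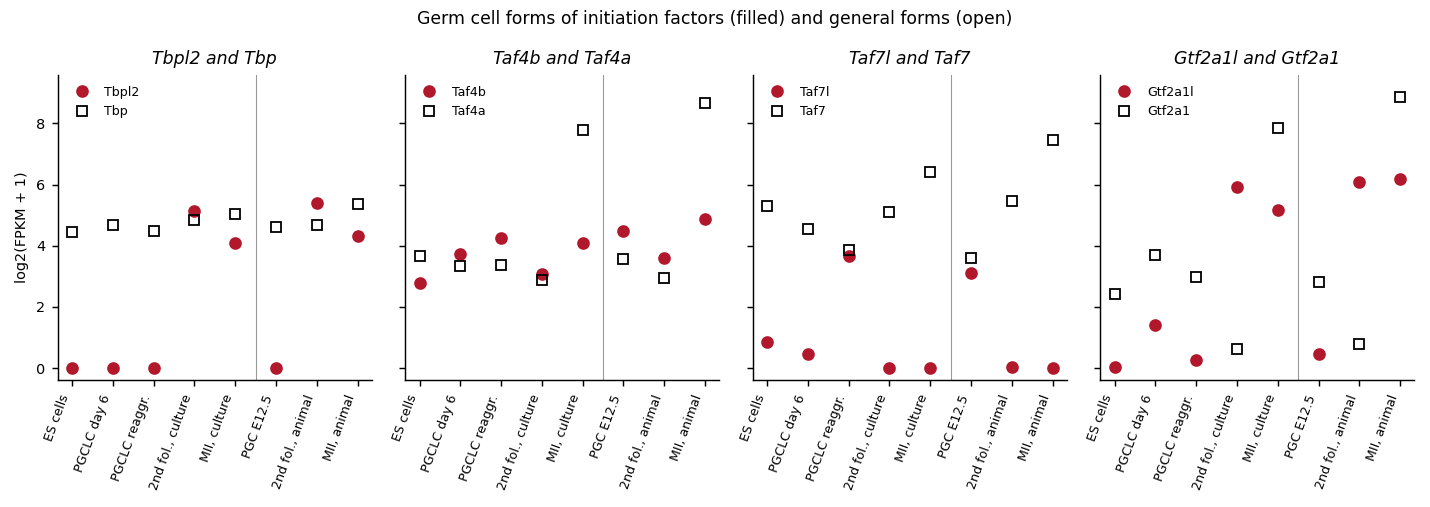
Levels as log2(FPKM + 1) of the germline form (filled circles) and the general form (open squares) of 4 initiation factors, Tbpl2 and Tbp, Taf4b and Taf4 (drawn as Taf4a), Taf7l and Taf7, and Gtf2a1l and Gtf2a1, in the 8 groups with 1 value each; a vertical line parts culture from animal. Tbpl2 lies above Tbp only in the secondary follicle oocytes, Taf7l comes near Taf7 only in aggregates and E12.5 germ cells, and Taf4 lies far above Taf4b at MII.

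The other TFIID subunits and initiation factors were followed as a list of 20. In the growth step 7 were called higher and 5 lower in each route, and the same genes were called in both, beside 25.2% higher and 26.4% lower of all genes in culture and 24.3% and 25.9% in animals. The list medians were 0.09 and -0.08, and 8 were called lower in animals after quantile normalization. Gtf2a1l, the germline form of a TFIIA subunit, had 0.206 FPKM in aggregates and 59.7 in secondary follicle oocytes of culture, and 0.369 and 66.7 in animals. Taf9b had log2 ratios of 4.07 in culture and 3.48 in animals, and Taf1 of -2.87 and -2.49. Tbpl1, another TBP relative, ran against Tbpl2: it went from 15.6 to 3.48 FPKM in culture and from 17.4 to 3.19 in animals. At MII 16 of 20 in culture and 15 of 20 in animals were called higher and 0 lower, with medians of 1.61 and 2.10. With equal column sums these counts were 7 higher and 2 lower, and 9 higher and 2 lower. After quantile normalization they were 10 higher and 1 lower in each route. Of all genes 23.9% were called higher and 28.6% lower in culture at MII, and 28% and 33.1% in animals. Gtf2a1, at 232 and 465 FPKM at MII, had the largest ratios of the list. Between the routes 0 of the 20 were called at the first 2 stages. There 1.39% and 1.74% of all genes were called higher in culture, and 0.786% and 0.66% lower. At MII 5 were called lower in culture, beside 9.45% of all genes, among them Taf6 at 64.2 against 143 FPKM. In that comparison 0 were called after quantile normalization or with equal column sums.

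The E-box proteins work with E proteins and are held back by ID proteins, and LHX8 is of the class that binds LDB proteins. A list of 13 such genes also held the LMO genes. Of the 13, 1 was called higher and 5 lower in the growth step in culture, and 1 higher and 6 lower in animals. The list median was -0.45 in each. The shares of all genes called in that step were 25.2% and 26.4% in culture and 24.3% and 25.9% in animals. Id1 was among the lower, from 46.7 to 3.38 FPKM in culture and from 117 to 1.46 in animals, and Lmo1 was the higher one, from 8.44 to 120 and from 5.86 to 132. The E protein gene Tcf3 went from 125 to 52.0 FPKM in culture and from 138 to 50.7 in animals, and Tcf12 from 18.3 to 13.2 and from 23.3 to 21.8. All 4 ID genes were called lower in both routes in the growth step, although Id3 in culture was not after centring on the all-gene median. In the same step Figla and Sohlh1 were called higher and Sohlh2 lower in both routes. A link between the ID genes and these factors was not tested. At MII 4 of the 13 were called higher in culture than in animals, beside 12.4% of all genes, among them Id3 at 15.5 against 7.04 FPKM. None was called after quantile normalization and 6 were with equal column sums.

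Stat3, Dynll1 and Sub1 are known, with Figla, Nobox, Lhx8, Sohlh1 and Tbpl2, as a set that turns stem cells into oocyte-like cells. Of these 3, Stat3 alone was called in the growth step, from 3.52 to 51.3 FPKM in culture and from 3.69 to 71.2 in animals. The all-gene shares called higher were 25.2% in culture and 24.3% in animals, and those called lower 26.4% and 25.9%. Dynll1 and Sub1 were within 1.35-fold in that step. From secondary follicle to MII oocytes, Stat3 and Sub1 were called higher and Dynll1 lower in both routes. Of all genes 23.9% were called higher and 28.6% lower in culture, and 28% and 33.1% in animals. After quantile normalization or with equal column sums, 0 of the 3 were called higher and 1 lower in each route. At MII Dynll1 was at 10.3 FPKM in culture and 2.18 in animals, the only one of the 3 called between routes. Of all genes 12.4% were called higher in culture at that stage.

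A list of 14 genes was followed that are reported elsewhere as direct targets of FIGLA, NOBOX, SOHLH1, SOHLH2 or LHX8, or as lower in ovaries lacking 1 of them. Which of the 14 are direct targets was not examined. The list was drawn up with earlier results of these data known. In the growth step 12 were called higher and 0 lower in each route, with medians of 10.27 in culture and 10.16 in animals. Kit and Pou5f1 were not called. Of all genes 25.2% were called higher and 26.4% lower in culture, and 24.3% and 25.9% in animals. All but Kit were picked as oocyte genes, so the count does not test whether targets follow their factors. Padi6 went from 0.444 to 4915 FPKM in culture and from 0.894 to 6223 in animals, and Zp3 from 0.683 to 5094 and from 1.22 to 5544. At MII the list split, beside all-gene shares of 23.9% higher and 28.6% lower in culture and 28% and 33.1% in animals. Zp1, Zp2, Zp3, Npm2, Padi6 and Nlrp14 were called lower in both routes, and Bmp15, Oosp1 and Mos higher in both, with Gdf9 also higher in animals. These MII counts depend on the scaling: 3 higher and 6 lower in culture became 1 and 9 after quantile normalization and 1 and 7 with equal column sums, and 4 and 6 in animals became 1 and 10, and 2 and 9. In FPKM as deposited, Zp3 kept 14.5% of its secondary follicle level in culture and 1.44% in animals. Zp2 kept 16.7% and 0.977%, and Npm2 16.7% and 1.03%. The 6 genes called lower were also the 6 called higher in MII oocytes of culture than of animals, as Nobox and Lhx8 were. Of all genes, 12.4% were called higher in that comparison.

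The genes whose log2(FPKM + 1) most resembled each member's were sought by Pearson correlation over the 8 groups, among 9010 genes with at least 10 FPKM in a group. With 8 points, of which 4 are oocytes, many genes reach a high value, and these are descriptions. Nobox was nearest to Foxj3 (r = 0.999) and Fbxw26 (0.999), with Padi6, a component of the oocyte's cytoplasmic lattices, at 0.998. Tbpl2 was nearest to Serpinc1 (0.999), Lhx8 to Fam46b (0.998), Sohlh1 to Map3k11 (0.996) and Figla to Tdrd9 (0.990). Taf7l was nearest to Stra8 (0.982), the gatekeeper of meiotic entry, which had 66.7 FPKM in aggregates and 63.6 in E12.5 germ cells. Sohlh2 (Zmynd11, 0.958) and Taf4b (Spice1, 0.971) had the lowest best matches. Among the members, Nobox and Lhx8 were most alike (0.994), then Figla and Sohlh1 (0.970), while Sohlh1 and Sohlh2 gave -0.65.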

How the data were processed

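The deposited table gives FPKM per gene and group, computed by the authors. The submitters' processing notes name TopHat2, Bowtie2 2.0.13, Cufflinks, Cuffdiff 2.2.1 and mm10. The annotation, the strand setting and the way samples were joined into 1 value per group are not given in the sources used here. Read depth is unknown, so no interval or detection limit can be given.

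Genes with at least 1 FPKM in at least 1 of 8 groups (14242) were compared in 9 pairs of groups by the difference in log2(FPKM + 1), called at 1 (2-fold). A fold on this scale understates the change of low genes. The fold in FPKM is given where both groups have at least 1 FPKM. Alternatives were quantile normalization, equal column sums, centring on the median ratio, a minimum of 5 FPKM or no minimum, and pseudocounts of 0.1 and 5; no pseudocount, and the same alternatives for the lists, were added after seeing the data. The members and lists were chosen with earlier results of these data known. From each list, at most 4 called genes per comparison with at least 10 FPKM in the higher group were named, besides Tbp, Tbpl1, Taf4 (listed under its older symbol Taf4a), Taf7, Tcf3, Tcf12, Stat3, Dynll1 and Sub1, with further list members named where a count is itemised or a level bears on a member; the latter were chosen after their values were seen. Python 3.11.15, pandas 2.3.3, NumPy 2.4.6 and matplotlib 3.10.9 were used, and the steps were tested on simulated data. Positions are from GENCODE M21 on GRCm38, the assembly that mm10 names, and promoters from RefSeq.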

Additional observations from a re-analysis of the deposited data

How the results depend on the processing

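The 5 growth-stage genes kept their calls in the growth step under every alternative tried, as did Sohlh2 and Taf7l. Of 394 values of single members under the alternatives, 368 kept their side of the 2-fold rule, 17 passed it newly and 8 no longer passed it. In 1 more a called ratio changed sign, Taf4b from secondary follicle to MII oocyte in animals with equal column sums (-0.11). Ratios near 0 among the 368 could also change sign. That of Taf7l in the same step in animals, -0.0194, did so after centring on the all-gene median of -0.09. The number of members called moved by over 1.5 times, or to or from 0, in 5 comparisons, and by 1 or 2 members in the growth and MII steps of both routes, through Taf4b and Tbpl2. From stem cells to day 6 it was 1, and became 4 with a pseudocount of 0.1, 0 with 5, 2 after quantile normalization and 2 with equal column sums. With the 0.1 pseudocount it went from 2 to 4 from day 6 to aggregates, from 0 to 2 between aggregates and E12.5 germ cells, and from 2 to 4 between MII oocytes of culture and animals. Equal column sums gave 1 between aggregates and E12.5 germ cells, and a pseudocount of 5 gave 0 between secondary follicle oocytes. Filters on low values moved no member count.

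Equal column sums shifted the median log2 ratio of all genes to -0.38 and -0.34 in the growth step in culture and animals, to -0.50 and -0.74 at MII, to 0.11 from day 6 to aggregates and to 0.23 between MII groups. All genes called higher and lower then went from 733 and 718 to 1326 and 532 from day 6 to aggregates, from 3594 and 3755 to 3138 and 4982 in growth in culture, from 3409 and 4070 to 2131 and 5619 at MII in culture, from 3988 and 4715 to 2170 and 6499 at MII in animals, and from 1772 and 1346 to 2385 and 168 between MII groups. The causes were not tested. No paired analysis was possible because the table holds 1 value per group, and for the same reason no sample could be left out.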
